A study of Homo sapiens with 6 samples.

Results

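The genes described here are 44 splicing factors that act on nuclear pre-mRNA, 19 hnRNP genes, 11 SR genes, the 2 TRA2 genes, the 3 SF3A and 6 SF3B subunits, the 2 U2AF subunits and DHX9, taken by symbol and Ensembl ID from the 60892 rows of a gene count table. All 44 had a row, and 43 passed the filter on low counts, as did 12994 genes in all. The libraries, 3 control and 3 ZQ, came from BEAS-2B, an immortalised human bronchial epithelial cell line with a wild-type label. Control cells received medium for 24 hours, and ZQ cells received ZQ (Zhenqi Granules, a herbal preparation) at 10 mg/mL for the same time. Both groups were then exposed to methicillin-resistant Staphylococcus aureus (MRSA), at 1 bacterium per cell, and collected 2 hours later. Since every library is from infected cells, the data compare ZQ with medium under infection and hold no uninfected level. BEAS-2B is a single transformed line. Whether the 3 libraries in each group are from different cultures is not stated in the labels, so the p-values reflect variation among these libraries that may be technical.

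Splicing removes introns through the spliceosome, an assembly of small nuclear RNAs and proteins. SR proteins bind exons through RNA recognition motifs and recruit the spliceosome with arginine-serine repeats, whereas hnRNP proteins coat the nascent transcript and often oppose exon inclusion. The U2AF dimer reads the 3′ splice site, and the SF3A and SF3B complexes, parts of the U2 small nuclear ribonucleoprotein, then fix the branch site whose adenosine attacks the 5′ splice site. Many SR and hnRNP genes also control their own level through exons or introns that send their transcripts to nonsense-mediated decay, which gene counts cannot show.

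Total counts ranged from 11665967 to 14699677 in control and from 2064566 to 2451746 in ZQ libraries. The control mean was 5.95 times the ZQ mean. A count was found for 19400 to 21141 genes in control and for 23836 to 24713 genes in ZQ libraries. On the mitochondrial genome lay 7.04% to 10.1% of control counts against 38.4% to 40.7% of ZQ counts. A count of 3 in a library, taken as the floor, is 0.174 to 0.231 CPM in control and 1.45 to 1.67 CPM in ZQ libraries, where CPM is the count relative to the library's total after TMM scaling. Pearson correlations of log2 CPM were 0.97 to 0.98 between control libraries and 0.80 to 0.81 between ZQ libraries, so the ZQ libraries were noisier. KRT8 and KRT18, keratins of simple epithelium, held 74703 and 31574 control counts, while the epithelial genes CDH1, TP63 and KRT5 held 6, 0 and 0. Summed levels were 1917 to 3406 CPM in control and 1750 to 1979 CPM in ZQ libraries for the 10 epithelial markers, and 558 to 1009 against 186 to 229 CPM for 8 fibroblast markers. Within the epithelial list KRT7 was called higher (log2 change 1.61) and KRT8 and CLDN1 lower (-1.24 and -1.44), and KRT8 held most of the control sum. In the fibroblast list COL1A1, COL1A2 and THY1 were called lower (-1.79, -2.92 and -1.84) and 0 higher. The sums were 0.385 to 1.28 against 10.2 to 20.7 CPM for 8 leukocyte markers, with CD68 and LYZ at 0 in all libraries, and 0.930 to 2.87 against 19.7 to 23.7 CPM for 5 endothelial markers. They rest on 43 control and 80 ZQ counts for the leukocyte list and 82 and 122 counts for the endothelial list. In the endothelial list PECAM1 and VWF were called higher (6.64 and 3.85), from 2 and 33 control counts and 34 and 62 ZQ counts. No leukocyte marker passed the filter. The part of these lists, and of the mitochondrial share and depth, in the results was not tested, and in bulk RNA fewer cells of a type and less RNA per cell cannot be told apart.

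The 44 genes together took 1.19%, 1.21% and 1.18% of all counts in the control libraries and 0.693%, 0.670% and 0.706% in the ZQ libraries. Every ZQ library was lower. Of counts outside the mitochondrial genome they took 1.31%, 1.30% and 1.31% against 1.13%, 1.13% and 1.17%, so the groups were nearer but still apart. Of the 43 tested genes, 17 fell and 6 rose with ZQ (quasi-likelihood F-test of edgeR, threshold 0.05 after adjustment over all genes). Over all tested genes 38.3% passed, 19% lower and 19.3% higher. In 30 of the 43, 20 lower and 10 higher, the groups were free of overlap, where 53.5% of all tested genes did not overlap, 28% lower and 25.4% higher. The median log2 change of the 43 was -0.33, beside 0.03 over all tested genes. In DESeq2 15 members were lower and 6 higher, against 19.9% and 23.8% of all genes. The split depended on scaling. Under upper-quartile scaling 7 were lower and 12 higher, with a median of 0.11, where 12.4% and 29% of all genes were. By library totals 22 were lower and 2 higher, against 27% and 13.7% of all genes. With offsets for GC content and transcript length it was 12 lower and 17 higher (median 0.26), where 15.8% of all genes were lower and 17.8% higher. Leaving out control replicate 1 or control replicate 3 left 8 lower genes in each case, where 12.9% and 13.8% of all genes were lower.

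**Figure D1:**
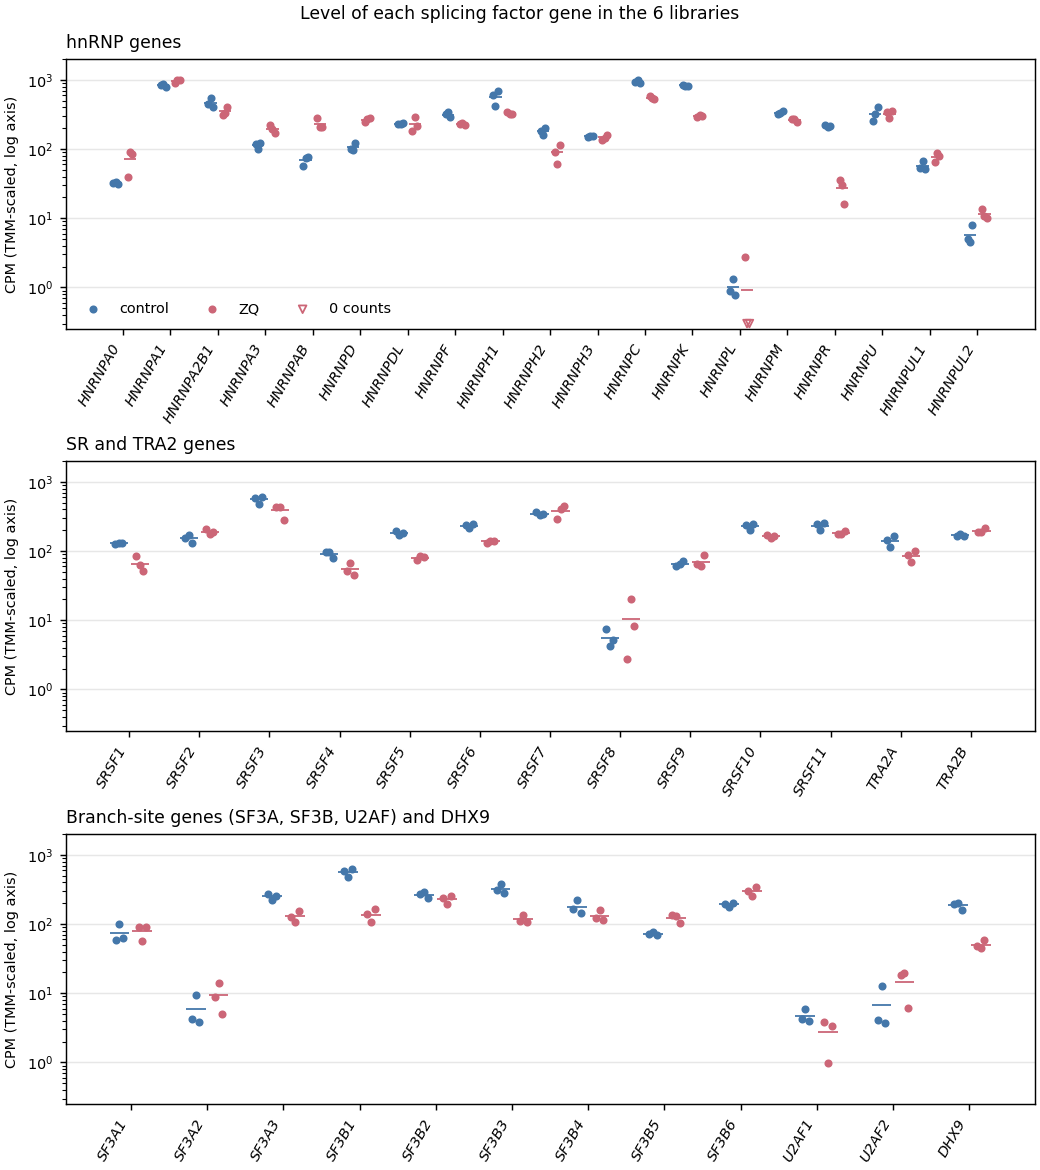
Level of each of the 44 genes in the 6 libraries, as TMM-scaled CPM on a log axis, with 3 control (blue) and 3 ZQ (red) points per gene and a short line at each mean; open triangles mark libraries with 0 counts. HNRNPK, HNRNPR, SF3B1, SF3B3, DHX9 and SRSF5 have every ZQ point below every control point, and HNRNPAB and HNRNPD every ZQ point above.

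The genes whose call and direction were the same in all 18 alternative settings were 6 that fell, HNRNPK, HNRNPR, SRSF5, SF3B1, SF3B3 and DHX9, and 2 that rose, HNRNPAB and HNRNPD. They are described first in each family, and values per library stand in the order of replicates 1, 2 and 3 (n = 3 in each group). Of the other 11 genes that fell, 7 had a change above 0 with the GC and length offsets, and so turned direction, and 9 lost their call without 1 library. Counts by family stand beside the shares of all tested genes. These were 19% lower and 19.3% higher in edgeR, and 27% and 13.7% by library totals. Under upper-quartile scaling they were 12.4% and 29%, with the offsets 15.8% and 17.8%, and with no filter 9.54% and 20.8%. Without ZQ replicate 1, 2 or 3 in turn they were 18.5% and 16.7%, 19.1% and 15.9%, and 19.6% and 17.3%. Nothing is particular to a family by its count alone.

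In the hnRNP A/B and D families, 4 of 7 genes rose and 0 fell, whereas by library totals 2 rose and 1 fell. These proteins carry paired RNA recognition motifs, bind exon silencers and AU-rich elements, and shuttle between nucleus and cytoplasm. HNRNPAB stood at 57.7, 74.6 and 77.2 CPM in control and 280.3, 211 and 208 CPM in ZQ libraries. Each ZQ library was above each control library, and the log2 change was 1.74 ± 0.20 (SE, adjusted p = 1.7e-04, edgeR), which puts ZQ at 334% of control. HNRNPD, also known as AUF1, which binds AU-rich elements and marks messages for decay, had 101, 96.04 and 124 CPM in control and 247, 269.9 and 280.2 CPM in ZQ libraries. Its groups were also apart, with a log2 change of 1.31 ± 0.17 (SE, adjusted p = 3.1e-04, edgeR), or 2.31 with the offsets. HNRNPA3 followed with 118, 101 and 121 CPM in control and 221, 198 and 174 CPM in ZQ libraries. The groups did not overlap and the change was 0.80 ± 0.18 (SE, adjusted p = 0.0052, edgeR). It missed the threshold by library totals (0.42) and with no filter (0.49), and with the offsets it was 2.09. HNRNPA0, whose gene has no introns, held 31.9, 32.9 and 30.99 CPM in control and 40.04, 90.9 and 84.8 CPM in ZQ libraries. The lowest ZQ library lay close above the controls, and the change of 1.17 ± 0.33 (SE, adjusted p = 0.018, edgeR) lost its call without ZQ replicate 2 (0.87) or ZQ replicate 3 (0.95).

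HNRNPA1, the most studied splicing repressor of the family, was among the most abundant of the 44 genes, at 847, 869 and 801 CPM in control and 909, 1001 and 981 CPM in ZQ libraries. Its groups were apart by a small margin and the log2 change was 0.20 ± 0.11 (SE, adjusted p = 0.17, edgeR). It was -0.18 by library totals and -0.11 with no filter, without a call. HNRNPA1 was called higher under upper-quartile scaling (0.65), with controls thinned to ZQ depth (0.46), without control replicate 2 (0.31) and with the offsets (0.93). HNRNPA2B1, a close relative, stood at 448, 539.7 and 410.1 CPM in control and 312, 328 and 413 CPM in ZQ libraries. One ZQ library lay within the control range, and the change was -0.41 ± 0.16 (SE, adjusted p = 0.070, edgeR). HNRNPA2B1 was called lower by library totals (-0.80), with no filter (-0.72) and without ZQ replicate 3 (-0.63). Under upper-quartile scaling it was 0.04 without a call, and with the offsets 0.94 and called higher. HNRNPDL, a paralog of HNRNPD, overlapped between groups at 229.8, 228 and 238 CPM in control and 183, 289.8 and 214 CPM in ZQ libraries. Its log2 change was -0.02 ± 0.18 (SE, adjusted p = 0.95, edgeR). Reads of these genes can be shared with processed copies: 75 rows named as HNRNPA1 copies held 1159 control and 276 ZQ counts, 3.07% and 5.03% of those of HNRNPA1 itself.

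The hnRNP F/H family, which binds runs of G and thereby tunes nearby splice sites, had 3 of 4 genes lower and 0 higher, while with the offsets 1 was lower and 1 higher and under upper-quartile scaling none passed. HNRNPH2 stood at 184, 157 and 199.8 CPM in control and 92.2, 60.5 and 116 CPM in ZQ libraries. All ZQ libraries were lower and the log2 change was -1.02 ± 0.24 (SE, adjusted p = 0.0080, edgeR). It was 0.0063 with the offsets, and the call was lost without control replicate 1 (-0.87) or 3 (-0.80). HNRNPH1 held 609.7, 415 and 697 CPM in control and 341, 322 and 319 CPM in ZQ libraries. Control replicate 2 was lowest of the controls, and all ZQ libraries were below it. The change of -0.81 ± 0.19 (SE, adjusted p = 0.0064, edgeR) lost its call without control replicate 1 (-0.64) or 3 (-0.52) and stayed at -0.96 with the offsets. This call held in 13 of 18 alternatives. HNRNPF had 318, 338 and 287 CPM in control and 228, 235 and 226 CPM in ZQ libraries. The change was small, -0.45 ± 0.14 (SE, adjusted p = 0.026, edgeR). It passed in 8 of 18 alternatives. Without control replicates 1, 2 and 3 in turn it was -0.31, -0.32 and -0.38 with no call. HNRNPH3, at 151, 156 and 153 CPM in control and 136, 143 and 162 CPM in ZQ libraries, overlapped between groups, with a log2 change of -0.06 ± 0.16 (SE, adjusted p = 0.79, edgeR) and 1.25, then called higher, with the offsets.

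Among the remaining hnRNP genes, 3 of 7 tested fell and 0 rose. With the offsets, and under upper-quartile scaling, 3 fell and 2 rose. HNRNPR, a relative of SYNCRIP that binds mRNA in the nucleus and in axons, fell most of all 43 genes, with 224, 207 and 218 CPM in control and 36.2, 29.99 and 16.2 CPM in ZQ libraries. Every ZQ library was far below the controls, with a log2 change of -2.97 ± 0.28 (SE, adjusted p = 4.6e-05, edgeR) and a ZQ level of 12.7% of control; with the offsets the change was -1.74. HNRNPK, a KH-domain protein that binds runs of C in RNA and DNA and acts in splicing, transcription and translation, had 849, 819 and 827 CPM in control and 295, 313 and 302 CPM in ZQ libraries. Replicates were tight in both groups, and the log2 change of -1.46 ± 0.12 (SE, adjusted p = 2.0e-05, edgeR) shrank to -0.49 with the offsets but kept its call. HNRNPC, which binds runs of U and sorts transcripts for export, stood at 943, 1004 and 888 CPM in control and 580.3, 539.9 and 533 CPM in ZQ libraries. The groups were apart with a change of -0.78 ± 0.12 (SE, adjusted p = 6.2e-04, edgeR), which kept its call under each scaling and each left-out library (-0.33 under upper-quartile scaling) and turned to 0.41, called higher, with the offsets.

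HNRNPM, at 320.0, 334 and 359 CPM in control and 274, 269.9 and 244 CPM in ZQ libraries, did not overlap between groups but missed the threshold, with a log2 change of -0.36 ± 0.14 (SE, adjusted p = 0.060, edgeR). HNRNPM was called lower by library totals (-0.75), with no filter (-0.67), without ZQ replicate 1 (-0.49) or 2 (-0.48) and with the offsets (-0.67). Under upper-quartile scaling it was 0.08 without a call. HNRNPU, a scaffold attachment factor that binds chromatin and RNA, stood at 253, 316 and 400.2 CPM in control and 345, 281 and 351 CPM in ZQ libraries. The groups overlapped, the change was 0.01 ± 0.19 (SE, adjusted p = 0.97, edgeR), and with the offsets it was 0.68 and called higher. Its relative HNRNPUL1 overlapped too, at 52.5, 67.5 and 51.9 CPM in control and 64.2, 89.01 and 80.4 CPM in ZQ libraries, with a change of 0.44 ± 0.24 (SE, adjusted p = 0.18, edgeR). HNRNPUL1 was called higher under upper-quartile scaling (0.89) and with controls thinned to ZQ depth (0.72), and was -0.06 with the offsets. HNRNPUL2, at 4.99, 4.59 and 7.86 CPM in control and 13.7, 10.6 and 10.05 CPM in ZQ libraries, had all ZQ libraries above the controls and a change of 0.98 ± 0.50 (SE, adjusted p = 0.15, edgeR) without a call, and 44.2% of its exonic bases are also annotated to a read-through gene on the same strand. HNRNPUL2 was called higher under upper-quartile scaling (1.42) and with the thinned controls (1.50). HNRNPL, which binds CA repeats, was the gene that failed the filter, with 46 counts in control and 5 in ZQ libraries, all 5 in ZQ replicate 1. Of its exonic bases, 8.2% are also annotated to another gene on the same strand.

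**Figure D2:**
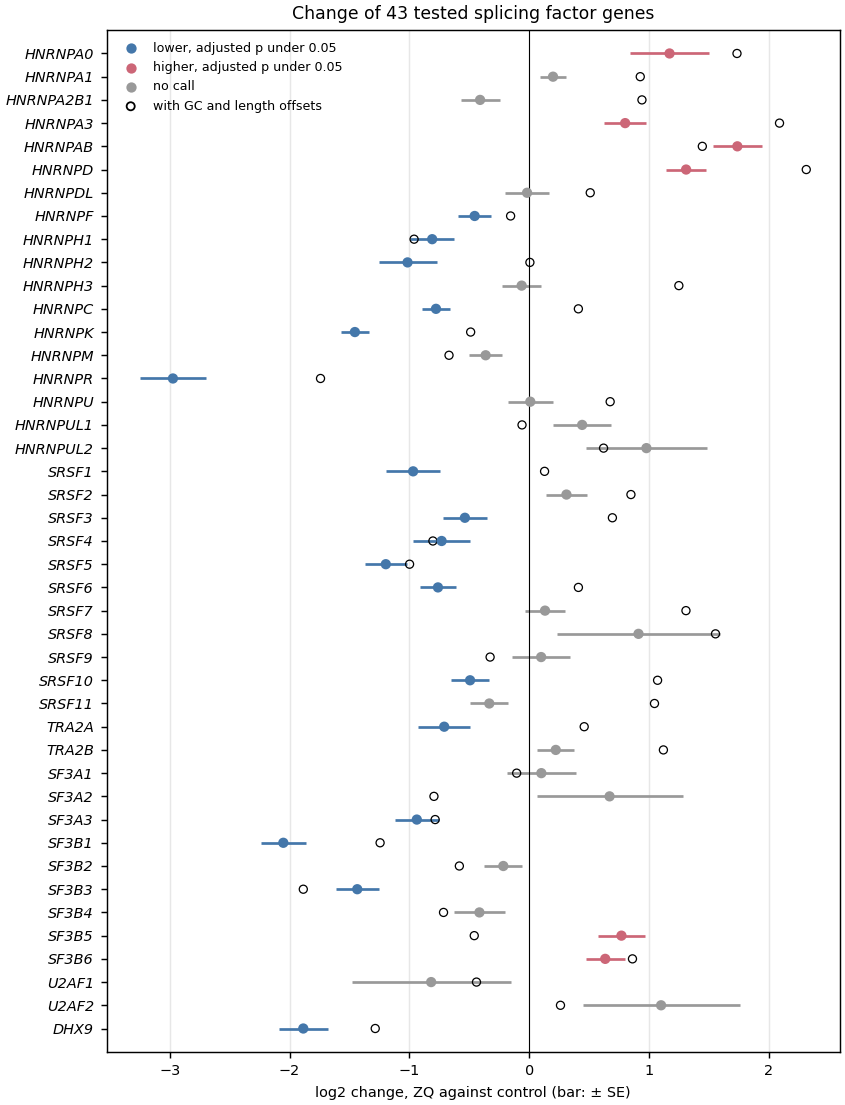
Log2 change of the 43 tested genes, ZQ against control, with bars of 1 SE; filled points are blue for genes called lower, red for genes called higher and grey for no call, and open circles give the change with GC and length offsets. HNRNPR (-2.97), SF3B1 (-2.05) and DHX9 (-1.89) lie farthest to the left, HNRNPAB (1.74) and HNRNPD (1.31) farthest to the right, and 5 of the 11 SR genes (SRSF1, SRSF3, SRSF6, SRSF10 and SRSF11) cross from the left to the right of 0 with the offsets.

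SR genes had 6 of 11 lower and 0 higher, with a median log2 change of -0.49. This direction held under library totals (-0.87), was near 0 under upper-quartile scaling (-0.05), where 1 was lower and 2 higher, and reversed with the offsets, where 2 were lower and 6 higher (median 0.70). SRSF5, also known as SRp40, stood at 193, 172 and 184 CPM in control and 73.5, 85.1 and 80.9 CPM in ZQ libraries. It was lower in each ZQ library, with a log2 change of -1.20 ± 0.17 (SE, adjusted p = 5.8e-04, edgeR) and -0.998 with the offsets. SRSF6, which was first described as SRp55, had 241, 216 and 243 CPM in control and 133, 139 and 141 CPM in ZQ libraries. The groups were apart with a change of -0.76 ± 0.15 (SE, adjusted p = 0.0031, edgeR). The call was lost under upper-quartile scaling (-0.32) and without control replicate 1 (-0.61) or 3 (-0.60). With the offsets the change was 0.41 and called higher. SRSF1, the founding member known as ASF/SF2, had 128, 129.7 and 132 CPM in control and 84.5, 63.4 and 50.8 CPM in ZQ libraries. Control libraries lay within a few CPM of each other, and the ZQ libraries were spread below them. The change was -0.97 ± 0.23 (SE, adjusted p = 0.0072, edgeR), or -0.85 and -0.82 with no call without control replicate 1 or 3 and 0.13 with the offsets. Of the exonic bases of SRSF1, 56.6% are also annotated to another gene on the same strand.

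SRSF10, which represses splicing when dephosphorylated, stood at 242, 199.9 and 250.3 CPM in control and 173, 153 and 166 CPM in ZQ libraries. The change was -0.49 ± 0.16 (SE, adjusted p = 0.034, edgeR). The call was kept in 8 of 18 alternatives, and was lost in DESeq2 (-0.42) and under upper-quartile scaling (-0.05), among others. It was also lost without control replicate 1 (-0.33) or 3 (-0.30), and with the offsets the change was 1.07 and called higher. SRSF3 and SRSF4 also fell, with log2 changes of -0.54 ± 0.18 (SE, adjusted p = 0.042, edgeR) and -0.73 ± 0.24 (SE, adjusted p = 0.034, edgeR) and calls kept in 7 and 9 of 18 alternatives. Both lost their call without any one control library (-0.37, -0.55 and -0.35 for SRSF3, -0.54, -0.61 and -0.69 for SRSF4). With the offsets SRSF3 turned to 0.70, called higher, and SRSF4 stayed at -0.80, called lower. SRSF11 had no call at -0.33 ± 0.16 (SE, adjusted p = 0.12, edgeR), without overlap between groups. It was called lower by library totals (-0.71) and with no filter (-0.64), and turned to 1.05, called higher, with the offsets.

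A further 4 SR genes had changes above 0 without a call. SRSF2, or SC35, the classic marker of nuclear speckles, had 154, 174 and 132 CPM in control and 206, 176 and 188 CPM in ZQ libraries. The ZQ libraries were slightly above the controls and the change was 0.31 ± 0.17 (SE, adjusted p = 0.18, edgeR), with -0.07 by library totals. SRSF2 was called higher under upper-quartile scaling (0.76), with controls thinned to ZQ depth (0.51) and with the offsets (0.85). Of its exonic bases, 36.7% overlap MFSD11 on the opposite strand. SRSF7, which takes part in splicing and export, overlapped between groups at 368, 338 and 341 CPM in control and 293, 401 and 453 CPM in ZQ libraries. Its change was 0.13 ± 0.17 (SE, adjusted p = 0.57, edgeR). SRSF7 was called higher under upper-quartile scaling (0.58) and with the offsets (1.31), and was -0.25 by library totals without a call. SRSF9, at 60.9, 64.4 and 72.6 CPM in control and 64.7, 60.5 and 87.1 CPM in ZQ libraries, differed by 0.10 ± 0.24 (SE, adjusted p = 0.77, edgeR), and 46.2% of its exonic bases overlap GATC on the opposite strand. SRSF8, a gene without introns derived from SRSF2, held few counts, at 7.39, 4.24 and 5.16 CPM in control and 2.74, 20.3 and 8.37 CPM in ZQ libraries. ZQ replicate 2 held 42 of its 62 ZQ counts and the change of 0.91 ± 0.68 (SE, adjusted p = 0.32, edgeR) was -0.11 without that library.

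The TRA2 genes encode SR-like activators that bind GAA-rich exons and can act in place of one another. TRA2A had 146, 114 and 163 CPM in control and 88.9, 70.6 and 99.4 CPM in ZQ libraries. All ZQ libraries were lower, with a change of -0.71 ± 0.22 (SE, adjusted p = 0.026, edgeR). The call was kept in 9 of 18 alternatives. It was lost in both limma-voom fits (-0.69), under upper-quartile scaling (-0.27) and without control replicate 1 (-0.56) or 3 (-0.46), among others. With the offsets the change was 0.46 without a call. TRA2B had 165, 178 and 168 CPM in control and 191, 187 and 218 CPM in ZQ libraries. The ZQ libraries were a little above the controls, and the change was 0.22 ± 0.16 (SE, adjusted p = 0.28, edgeR). TRA2B was called higher under upper-quartile scaling (0.67) and with the offsets (1.12), and was -0.16 by library totals without a call.

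Of the 6 SF3B subunits 2 were lower and 2 higher. By library totals and with no filter 4 were lower and 0 higher, with the offsets 4 lower and 1 higher, and without ZQ replicate 1, 2 or 3 in turn 2 and 0, 3 and 1, and 2 and 1. SF3B1, the large scaffold that holds the branch-site adenosine and the target of pladienolide and related inhibitors, had 594, 482 and 622 CPM in control and 139.9, 106 and 163 CPM in ZQ libraries. Every ZQ library was far lower and the ZQ mean was 24.1% of control, with a log2 change of -2.05 ± 0.19 (SE, adjusted p = 4.3e-05, edgeR) and -1.24 with the offsets. SF3B3, the propeller protein packed against SF3B1, had 307, 373 and 278 CPM in control and 111, 135 and 107 CPM in ZQ libraries. It was lower in each ZQ library, with a change of -1.44 ± 0.18 (SE, adjusted p = 2.5e-04, edgeR) and -1.89 with the offsets. SF3B6, the small protein known as p14 that contacts the branch site, stood at 198, 176 and 204 CPM in control and 302, 253 and 343 CPM in ZQ libraries. All ZQ libraries were higher, with a change of 0.64 ± 0.16 (SE, adjusted p = 0.011, edgeR) and 0.86 with the offsets. The call was lost by library totals (0.26), with no filter (0.32), without ZQ replicate 1 (0.54) and without ZQ replicate 3 (0.44).

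SF3B5, another of the complex's small subunits, had 70.7, 76.5 and 69.9 CPM in control and 134, 132 and 104 CPM in ZQ libraries. It was higher in each ZQ library at 0.77 ± 0.20 (SE, adjusted p = 0.012, edgeR). It lost the call by library totals (0.39), with no filter (0.46) and without ZQ replicate 1 (0.61) or 2 (0.62), and turned to -0.46 with the offsets. SF3B2, which binds SF3B4, overlapped between groups at 269, 291 and 242 CPM in control and 240.3, 195 and 255 CPM in ZQ libraries. SF3B4, an RNA recognition motif protein near the branch site, did so as well, at 167, 219 and 144 CPM in control and 123, 162 and 113 CPM in ZQ libraries. Their changes of -0.22 ± 0.16 (SE, adjusted p = 0.31, edgeR) and -0.42 ± 0.22 (SE, adjusted p = 0.15, edgeR) did not pass. Both were called lower by library totals (-0.60 and -0.81), with no filter (-0.53 and -0.73) and with the offsets (-0.58 and -0.71), and SF3B4 also passed without ZQ replicate 2 (-0.68). The longest annotated transcripts of SF3B1 and SF3B3 measure 6526 and 9720 bases, those of SF3B2 and SF3B4 3254 and 2085 bases, and those of SF3B5 and SF3B6 693 and 770 bases.

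SF3A bridges SF3B and the body of the U2 particle. SF3A3, a subunit with a zinc finger, stood at 273, 226 and 254 CPM in control and 128, 108 and 157 CPM in ZQ libraries. All ZQ libraries were lower and the change was -0.94 ± 0.18 (SE, adjusted p = 0.0026, edgeR), with -0.78 under the offsets, and it missed the threshold only under upper-quartile scaling (-0.49) among 18 alternatives. SF3A1 overlapped between groups at 59.4, 99.1 and 63.2 CPM in control and 89.96, 56.1 and 92.1 CPM in ZQ libraries, with a change of 0.10 ± 0.29 (SE, adjusted p = 0.80, edgeR). SF3A2 held few counts and overlapped too, at 4.17, 9.47 and 3.85 CPM in control and 8.78, 14.03 and 5.02 CPM in ZQ libraries, with a change of 0.67 ± 0.61 (SE, adjusted p = 0.41, edgeR) and -0.79 with the offsets.

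U2AF2, the large U2AF subunit that binds the polypyrimidine tract, held 4.03, 12.6 and 3.70 CPM in control and 18.1, 19.4 and 6.14 CPM in ZQ libraries. Control replicate 2 was above ZQ replicate 3, so the groups overlapped, with a change of 1.10 ± 0.66 (SE, adjusted p = 0.21, edgeR). U2AF1, the small subunit that reads the AG at the intron end, held 4.31, 5.93 and 4.01 CPM in control and 3.84, 0.968 and 3.35 CPM in ZQ libraries, from 217 control and 15 ZQ counts. The ZQ libraries were lower without a call, at -0.82 ± 0.66 (SE, adjusted p = 0.36, edgeR). Its count is not a measure of its transcript alone, since GRCh38 carries a second gene on chromosome 21, U2AF1L5, whose coding sequence is identical to that of U2AF1 over all 720 bases in 2 pairs of transcripts. U2AF1 lies on chromosome 21 at 43092956 to 43107587, and U2AF1L5 held 40 control counts and 1 ZQ count. The first 60 coding bases are shown, from GENCODE release 29, because reads from them cannot be placed at one gene or the other.
U2AF1 and U2AF1L5: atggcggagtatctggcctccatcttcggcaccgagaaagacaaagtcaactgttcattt

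DHX9, an RNA helicase that unwinds RNA and DNA duplexes and resolves structures formed by inverted repeats in transcripts, had 196, 203 and 159.9 CPM in control and 47.7, 44.99 and 58.6 CPM in ZQ libraries. Every ZQ library was far below the controls, at 27.1% of the control level, with a log2 change of -1.89 ± 0.20 (SE, adjusted p = 1.1e-04, edgeR) and -1.29 with the offsets. DHX9 lies on chromosome 1 at 182839369 to 182887751 in GRCh38, SF3B1 on chromosome 2 at 197389784 to 197435091, HNRNPR on chromosome 1 at 23303771 to 23344336 and HNRNPAB on chromosome 5 at 178204507 to 178211163.

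Ratios of counts between 2 genes within a library do not depend on how libraries are scaled to each other. The pairs given here were chosen after their values were seen, and their ratios carry no test. SF3B1 held 3.00, 2.73 and 3.04 counts per count of SF3B6 in the control libraries and 0.463, 0.420 and 0.476 in the ZQ libraries. These are ratios of counts and not of levels: per kb of transcript, SF3B6 was above SF3B1 in both groups, at 250.4 against 86.7 CPM per kb in control and 389 against 20.9 in ZQ libraries. The ratio of HNRNPK to HNRNPA1 counts was 1.00, 0.943 and 1.03 in control libraries and 0.325, 0.313 and 0.308 with ZQ. That of HNRNPR to HNRNPD went from 2.21, 2.15 and 1.76 to 0.146, 0.111 and 0.0578. The ratio of SRSF5 to SRSF2 was 1.26, 0.992 and 1.39 in control and 0.356, 0.484 and 0.430 in ZQ libraries, and that of TRA2A to TRA2B 0.881, 0.642 and 0.973 against 0.466, 0.378 and 0.455. In each of these pairs the groups did not overlap.

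**Figure D3:**
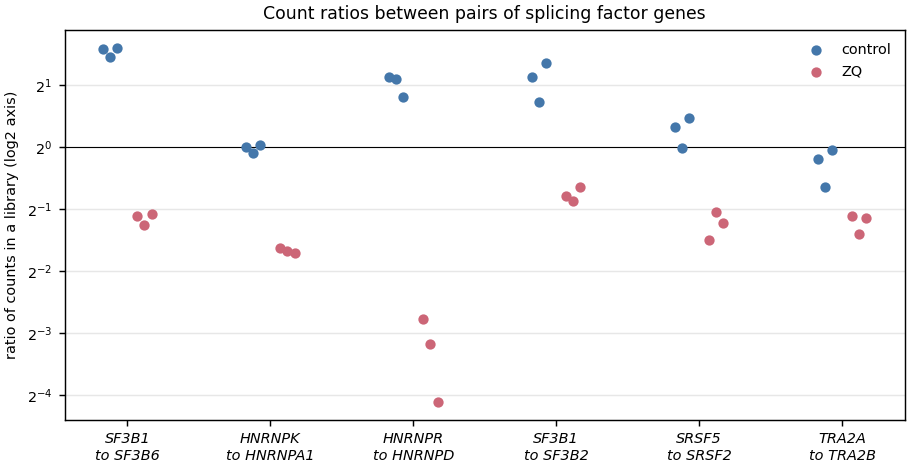
Ratio of the counts of 2 splicing factor genes within each library, on a log2 axis, for 6 pairs with 3 control (blue) and 3 ZQ (red) libraries each. The ratio of SF3B1 to SF3B6 was between 2.73 and 3.04 in control and between 0.420 and 0.476 in ZQ libraries, and in all 6 pairs the ZQ points lie below the control points.

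Promoters are shown for the genes whose call held in all 18 alternatives, since these calls did not depend on the setting. The 120 bases before the annotated start were read from RefSeq on GRCh38.p14, which had entries for 40 of the 44 genes and none for SF3B3. The GENCODE release 29 gene models of HNRNPR, SF3B1, HNRNPK and HNRNPAB begin inside these windows, and those of HNRNPD and SRSF5 begin upstream of them. Capitals mark matches, on either strand, to 4 short motifs that do not contain one another. The GC box was searched as GGGCGG, a site of Sp1 and related factors. The CCAAT box, bound by NF-Y, was searched by the letters of its name. The ETS site, bound by the family of that name, was searched as CCGGAAG. The TATA box, where TBP binds, was searched as TATAAA.
HNRNPK (chr9:83980616-83980735, minus strand): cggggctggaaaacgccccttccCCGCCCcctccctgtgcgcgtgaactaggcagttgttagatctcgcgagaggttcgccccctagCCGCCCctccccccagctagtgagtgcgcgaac
HNRNPR (chr1:23344285-23344404, minus strand): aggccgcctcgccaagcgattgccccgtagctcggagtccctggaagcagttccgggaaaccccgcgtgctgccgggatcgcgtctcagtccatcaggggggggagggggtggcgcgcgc
SRSF5 (chr14:69767022-69767141, plus strand): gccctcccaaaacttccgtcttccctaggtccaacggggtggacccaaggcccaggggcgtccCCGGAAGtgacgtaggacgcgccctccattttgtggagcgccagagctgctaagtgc
SF3B1 (chr2:197435029-197435148, minus strand): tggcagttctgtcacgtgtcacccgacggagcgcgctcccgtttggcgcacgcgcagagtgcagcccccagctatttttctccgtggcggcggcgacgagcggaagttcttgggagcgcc
DHX9 (chr1:182839227-182839346, plus strand): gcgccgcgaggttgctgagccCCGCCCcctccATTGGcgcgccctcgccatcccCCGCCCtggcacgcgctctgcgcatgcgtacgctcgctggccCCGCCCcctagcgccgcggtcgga
HNRNPAB (chr5:178204413-178204532, plus strand): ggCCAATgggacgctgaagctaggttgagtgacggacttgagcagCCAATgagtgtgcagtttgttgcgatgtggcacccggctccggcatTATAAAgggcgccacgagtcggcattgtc
HNRNPD (chr4:82373992-82374111, minus strand): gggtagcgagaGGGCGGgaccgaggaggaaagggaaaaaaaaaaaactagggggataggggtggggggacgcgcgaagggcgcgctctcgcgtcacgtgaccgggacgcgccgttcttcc
HNRNPAB, which rose, carries 2 CCAAT matches and a TATAAA match at 29 bases before the start, DHX9, which fell, carries 3 GC boxes and a CCAAT box on the other strand, and HNRNPR and SF3B1 carry none of the 4 motifs in this window. Over the 250 bases before the start, a GC box was found in 67.5% of the 40 members and 56.0% of 15842 protein-coding promoters, CCAAT in 40.0% and 34.5%, the ETS site in 27.5% and 11.8%, and TATAAA in 12.5% and 9.24%. Members with the ETS letters included genes that fell (SRSF5, SF3A3), a gene that rose (HNRNPD) and genes without a call (SF3B2, U2AF2). The CRE letters TGACGTCA matched 0 members and 2.32% of all promoters. These matches describe letters and are not binding sites.

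The rest of the splicing pathway was read through 8 lists with 145 genes, of which 139 were tested, 32 fell and 30 rose, where 19% and 19.3% of all tested genes did. The split followed scaling. Under upper-quartile scaling 16 were lower and 50 higher, against 12.4% and 29% of all genes. By library totals 47 were lower and 12 higher, against 27% and 13.7% of all genes. The counts of each list below stand beside the same shares, and nothing is particular to a list by its count alone. Proteins of the U1 and U2 particles and the Sm ring, which encircles the spliceosomal small nuclear RNAs, had 9 of 12 higher and 0 lower, with a median log2 change of 0.94 (0.55 by library totals, 0.73 with the offsets). The number higher was 5 by library totals, 4 of 13 with no filter and 6 with the offsets, and 0 were lower in each. SNRPF stood at 66.9, 65.1 and 73.4 CPM in control and 168, 155 and 185 CPM in ZQ libraries. SNRPE had 227, 199.8 and 256 CPM in control and 457, 426 and 526 CPM in ZQ libraries. SNRPD2 had 317, 291 and 380.2 CPM in control and 783, 692 and 659 CPM in ZQ libraries. All 3 are subunits of the Sm ring, their groups did not overlap, and their changes were 1.31 ± 0.18 (SE, adjusted p = 4.6e-04, edgeR), 1.05 ± 0.15 (SE, adjusted p = 5.9e-04, edgeR) and 1.11 ± 0.15 (SE, adjusted p = 3.4e-04, edgeR), the last falling to 0.21 without a call with the offsets. Tri-snRNP and LSm proteins, which bring in U4, U5 and U6, had 7 of 22 higher and 3 lower (median 0.17, and -0.22 by library totals). Library totals gave 1 higher and 5 lower, upper-quartile scaling 11 and 0, the offsets 7 and 6, and leaving out control replicate 1 gave 3 and 0. TXNL4A, a small U5 protein, rose at 1.26 ± 0.25 (SE, adjusted p = 0.0031, edgeR), as did LSM3 and SNU13 at 0.81 ± 0.17 and 0.62 ± 0.15, calls that were lost by library totals (0.43 and 0.23) and, for SNU13, without ZQ replicate 2 (0.44).

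Kinases that phosphorylate SR proteins and the importins that carry them into the nucleus had 6 of 10 lower and 0 higher, with a median log2 change of -1.12 that was -0.67 under upper-quartile scaling and -0.55 with the offsets. The number lower was 4 under upper-quartile scaling, 5 with the offsets and 4 without control replicate 1 or 3. TNPO3, the import receptor of phosphorylated SR proteins, had 101, 116 and 93.3 CPM in control and 14.3, 13.1 and 9.49 CPM in ZQ libraries. CLK1, a nuclear kinase of SR proteins, had 94.2, 82.2 and 101 CPM in control and 21.9, 18.9 and 11.7 CPM in ZQ libraries. In both genes every ZQ library was far lower, with changes of -3.07 ± 0.29 (SE, adjusted p = 4.7e-05, edgeR) and -2.40 ± 0.30 (SE, adjusted p = 2.9e-04, edgeR), and TNPO1, the receptor that imports HNRNPA1, changed by -1.48 ± 0.18 (SE, adjusted p = 2.5e-04, edgeR), or -0.81 with the offsets.

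Factors of spliceosome activation and catalysis had 10 of 27 lower and 2 higher (median -0.55, and -0.10 under upper-quartile scaling). The split was 5 lower and 4 higher under upper-quartile scaling, 15 and 1 by library totals and 4 and 5 with the offsets. The helicase AQR and the spliceosome-releasing helicase DHX15 fell at -1.97 ± 0.31 (SE, adjusted p = 7.5e-04, edgeR) and -1.36 ± 0.20 (SE, adjusted p = 6.6e-04, edgeR), and SNW1 at -1.21 ± 0.22 (SE, adjusted p = 0.0018, edgeR). With the offsets DHX15 and SNW1 lost their calls (-0.45 and -0.54) and AQR kept it (-1.40). Of 13 other branch-site factors 2 were lower and 1 higher, with 1 and 2 under upper-quartile scaling, 4 and 1 by library totals and 1 and 4 with the offsets. SF1, which holds the branch site before U2 arrives, had 39.5, 68.3 and 32.9 CPM in control and 125, 119 and 123 CPM in ZQ libraries. All ZQ libraries were above the controls, with a change of 1.38 ± 0.29 (SE, adjusted p = 0.0038, edgeR), whereas U2SURP, a U2-associated SR-like protein, and PUF60, a relative of U2AF2, fell at -1.40 ± 0.26 (SE, adjusted p = 0.0018, edgeR) and -0.70 ± 0.19 (SE, adjusted p = 0.015, edgeR). U2SURP stood at -0.16 with the offsets, without a call. PUF60 lost its call under upper-quartile scaling (-0.25), in both limma-voom fits (-0.70) and without control replicate 1 (-0.61) or 2 (-0.41).

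Other RNA-binding regulators related to SR and hnRNP proteins had 10 of 34 lower and 6 higher (median -0.19, and 0.26 under upper-quartile scaling). Under upper-quartile scaling 6 were lower and 10 higher, by library totals 13 and 3, and with the offsets 5 and 8. MBNL2, a muscleblind splicing regulator, had 205, 156 and 168 CPM in control and 12.1, 6.29 and 24 CPM in ZQ libraries. Every ZQ library was far lower, at -3.66 ± 0.39 (SE, adjusted p = 1.1e-04, edgeR), and EWSR1, an RNA-binding protein of the FET family, fell at -1.16 ± 0.16 (SE, adjusted p = 4.5e-04, edgeR), while PCBP2, a relative of HNRNPK that also binds runs of C, rose at 1.86 ± 0.28 (SE, adjusted p = 6.5e-04, edgeR). Exon junction and nonsense-mediated decay genes had 3 of 13 higher and 1 lower (median 0.45, and 0.07 by library totals), a share near that of all genes. Under upper-quartile scaling 8 were higher and 0 lower, by library totals 1 and 2, with the offsets 5 and 2, and without ZQ replicate 2 they were 1 and 1. UPF1, the central helicase of that decay pathway, rose at 1.77 ± 0.44 (SE, adjusted p = 0.0094, edgeR), or 0.66 without a call with the offsets. UPF3A rose at 0.85 ± 0.23 (SE, adjusted p = 0.016, edgeR). Its call was lost by library totals (0.47), with no filter (0.54) and without ZQ replicate 2 (0.71). EIF4A3, the exon junction anchor, fell at -0.81 ± 0.16 (SE, adjusted p = 0.0024, edgeR), a call lost under upper-quartile scaling (-0.37). Of 8 minor spliceosome proteins 2 were higher, SNRNP25 at 0.70 ± 0.19 (SE, adjusted p = 0.014, edgeR) and ZRSR2 at 1.27 ± 0.44 (SE, adjusted p = 0.043, edgeR), and 0 lower. Upper-quartile scaling gave 4 higher and 0 lower, and library totals 0 and 1. The third named by rule, SNRNP35, had no call at -1.34 ± 0.50 (SE, adjusted p = 0.059, edgeR). It was called lower in DESeq2 (-1.27) and limma-voom without group weights (-1.44). By library totals (-1.71), with no filter (-1.65) and without ZQ replicate 3 (-1.76) it was also called lower. The SNRNP25 call was lost by library totals (0.33), with no filter (0.39), without ZQ replicate 1 (0.47) and with the offsets (-0.19). That of ZRSR2 was lost by library totals (0.88), with no filter (0.96) and with the replicate block (1.26). It was also lost without ZQ replicate 2 (1.01) or any one control library (1.32, 1.31 and 1.53).

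**Figure D4:**
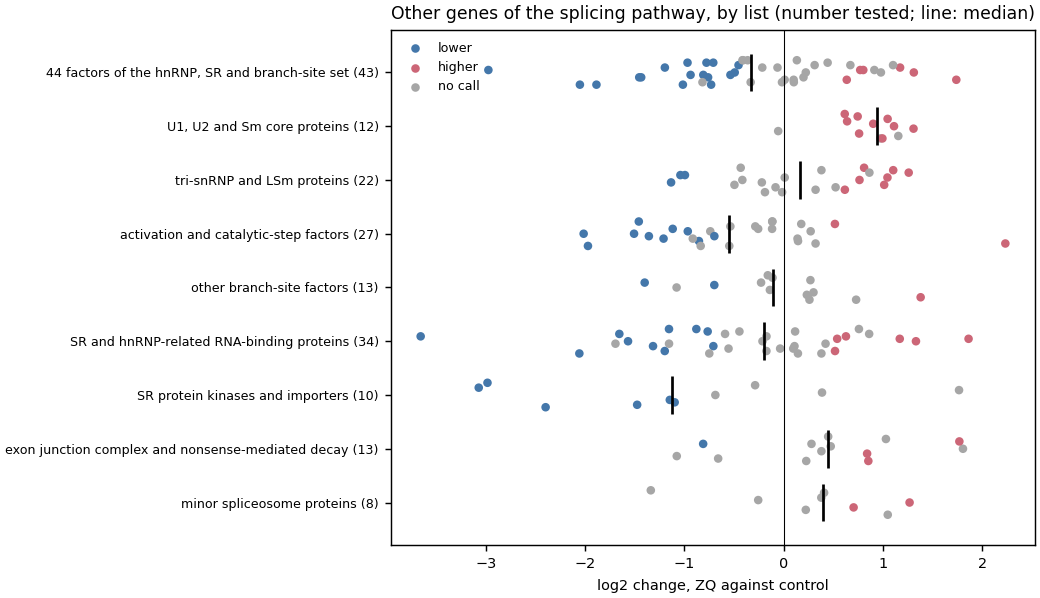
Log2 change, ZQ against control, of the tested genes of the 44-gene set and of 8 lists of other splicing genes, with the number tested in brackets and a black line at each median; blue points are called lower, red higher and grey have no call. Points of the Sm core list lie mostly to the right (median 0.94) and those of SR protein kinases and importers mostly to the left (median -1.12).

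Across the 43 tested members, the log2 change had a Spearman rho of 0.27 with GC content and -0.53 with the control level, given as a description over genes that share the same 6 libraries. The control level also enters the log2 change, so noise in it alone can bring the second rho below 0. Over 12849 genes with a GC value the rho with GC content was 0.46. The members' median GC content was 43.9%, against 48.0% over all tested genes, and the SR genes had a median of 41.2%. With the offsets the rho of the members' change with GC content was -0.44, so the correction did not leave their changes unrelated to GC content. The called members that turned direction with the offsets, HNRNPC at 39.2% GC, HNRNPH2 at 42.1%, SRSF1 at 41.2%, SRSF3 at 39.3%, SRSF6 at 39.6%, SRSF10 at 36.2% and TRA2A at 41.1% among those that fell, were below the median of all tested genes, and SF3B5, which had risen, was above it at 56.6%. The offsets are themselves fitted to GC content, so this split is largely set by the fit and is no separate result about these genes. The offsets also moved SF3B1, at 41.0% GC, from -2.05 to -1.24 and HNRNPR, at 35.3%, from -2.97 to -1.74.

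**Figure D5:**
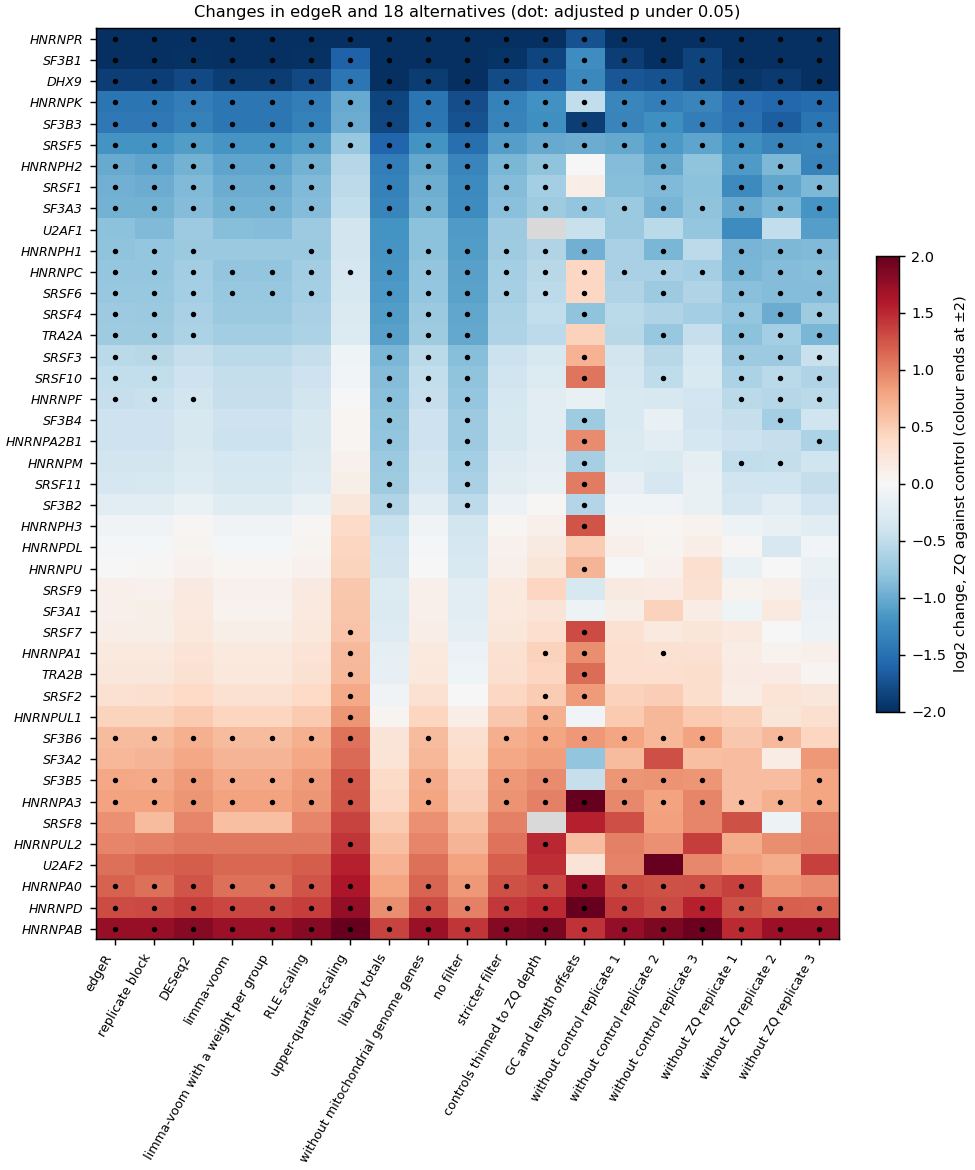
Log2 change of the 43 tested members (rows, ordered by the edgeR value) in edgeR and 18 alternatives (columns), with blue for lower and red for higher with ZQ, colours ending at 2 log2 units, a dot for an adjusted p under 0.05 and grey where a gene was not tested. The rows of HNRNPR, SF3B1, DHX9, HNRNPK, SF3B3 and SRSF5 are blue with dots throughout, those of HNRNPD and HNRNPAB red with dots throughout, and the GC and length column differs most in the middle rows.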

How the data were processed

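RNA sequencing gave 6 libraries, 3 per group. The values the authors deposited are raw counts of reads for each gene. Per the labels' protocols, TRIzol RNA was treated with DNase and sequenced from NEBNext Ultra libraries. The submitters' processing notes name GRCh38 and Cufflinks 2.1.1, without saying what Cufflinks was used for. Not given in the sources used here: aligner, counter, annotation and whether strand was used. Reads of overlapping, antisense or near-identical genes therefore cannot be told apart.

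Tests were made with the quasi-likelihood F-test of edgeR 4.0.16 (R 4.3.3) after TMM scaling, on genes that passed filterByExpr at a minimum count of 10 and a minimum total of 15, at a Benjamini-Hochberg threshold of 0.05 taken across 12994 genes. SE is the size of the log2 change over the square root of F. The 18 alternatives were DESeq2 1.42.0, limma 3.58.1 (voom, with and without group weights), other scalings and filters, thinned controls, a replicate block, each library left out, and offsets fitted in each library to GC content and length of the longest GENCODE release 29 transcript (mgcv 1.9.3). Such offsets can also remove true changes that follow GC content or length.

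The members, lists and alternatives were chosen with earlier results of these data known. Values per library are printed for SF3A, SF3B, U2AF, TRA2 and DHX9. In the other families they are printed for the 4 smallest adjusted p and for members opposite to their list's median, and HNRNPA1 was added after its values were seen. Up to 3 genes with the smallest adjusted p are named per pathway list. The fit was tested on simulated data in which, of 12994 genes, 100 changed by 1 and 100 by 2 log2 units. It recovered 7 and 43 of them and so missed most. Far fewer genes changed there than the 38.3% called here, so these rates need not hold for these data. A missing call does not show that a gene kept its level. No 2 libraries of a group agreed within sampling noise.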

Additional observations from a re-analysis of the deposited data

How the results depend on the processing

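Of the 44 genes, 17 were lower in edgeR, 11 in limma-voom with or without a weight per group, 7 under upper-quartile scaling, and 8 to 19 with 1 library left out. Of all genes, 19% were lower in edgeR, 18.1% to 19.3% in the limma-voom fits and 12.4% under upper-quartile scaling. The share was 9.54% without a filter and 12.9% to 19.6% with 1 library left out. The 6 higher members became 12 under upper-quartile scaling, 2 by library totals, 3 without a filter, 10 with thinned controls, 17 with GC and length offsets, and 4 to 7 with 1 library left out. Of all genes, 29%, 13.7%, 20.8%, 17.1%, 17.8% and 12.6% to 17.3% were higher in these settings, in that order. The members' median of -0.33 became 0.11 under upper-quartile scaling, -0.71 by library totals, -0.59 without a filter, -0.18 under the stricter filter, -0.15 with thinned controls, 0.26 with the offsets, and -0.41 to -0.15 with 1 library left out. The median of all genes moved from 0.03 to 0.48 under upper-quartile scaling, -0.35 by library totals and 1.75 without a filter, so changes there stand relative to those values. Of the 17, 9 were also called lower with the offsets and 17 by library totals.

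Of the pathway genes, the 32 lower became 16 under upper-quartile scaling, 49 without a filter and 18 to 38 with 1 library left out, and the 30 higher became 50, 12 by library totals, 12 without a filter, and 21 to 31 with 1 left out. Their median of -0.04 was 0.042 in DESeq2, 0.043 under RLE scaling, 0.41 under upper-quartile scaling, -0.41 by library totals, -0.32 without a filter, 0.062 under the stricter filter, 0.13 with thinned controls, and -0.10 to 0.11 with 1 left out, where it was above 0 without any one control library. With the offsets 16 members, 8 of them called, and 35 pathway genes, 7 of them called, had the other sign. Among the members these were HNRNPA2B1 (0.94), HNRNPH2 (0.0063), HNRNPH3 (1.25), HNRNPC (0.41), SRSF1 (0.13), SRSF3 (0.70), SRSF6 (0.41), SRSF10 (1.07), SRSF11 (1.05), TRA2A (0.46), SF3B5 (-0.46), HNRNPDL (0.51), HNRNPUL1 (-0.06), SRSF9 (-0.33), SF3A1 (-0.10) and SF3A2 (-0.79). Called pathway genes among them included SNRPA (-0.07), SNRPB (-0.31), LSM7 (-1.03, called lower), PLRG1 (0.32), PRPF4B (0.10) and SNRNP25 (-0.19). The cause was not tested.

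Deviations of same-numbered libraries correlated at 0.009, 0.037 and 0.032 across genes, and those of differently numbered libraries at -0.035 to 0.0086. Values this small cannot decide whether replicate numbers pair the libraries. The block by replicate number gave 17 lower and 6 higher members, with a median of -0.33, and 33 lower and 25 higher pathway genes, and ended the call of ZRSR2 (1.26). Of all genes 18.3% were lower and 15.6% higher with the block. Control and ZQ depth differed 5.95 times, which limits low genes such as HNRNPL, U2AF1, U2AF2 and SRSF8. These genes were low in the deeper control libraries as well, with 46, 217, 323 and 248 counts in total.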

Other observations

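Levels per kb of the longest annotated transcript let the genes be ranked within a group. In control libraries the mean level was highest for HNRNPK, at 283 CPM per kb, followed by SF3B6 at 250.4, HNRNPC at 209.9, HNRNPA1 at 204 and HNRNPH1 at 157. In ZQ libraries the order was SF3B6 at 389, HNRNPA1 at 234, SF3B5 at 178, SRSF7 at 154 and HNRNPAB at 129.8 CPM per kb. HNRNPAB moved from rank 30 to rank 5 of 44 and SF3B1 from rank 12 to rank 33, while HNRNPL was lowest in both groups. The ranks rest on 1 transcript length per gene and were not tested.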
